A study of Mus musculus with 20 samples.

Results

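Macrophages carry a set of surface proteins by which they instruct T cells, hold on to other cells and mark their own activation. Here 10 genes of that set are described: the costimulatory receptor gene Cd40, the B7 family genes Cd80, Cd86 and Cd274, the maturation antigen Cd83, the adhesion receptors Icam1, Vcam1 and Cd44, and the activation antigens Cd69 and Cd38. The members were every non-control probe whose gene name in the scanner files was one of these names. That gave 15 of 39429 probes for the 10 genes, among 30119 gene names on the array, with 4 probes for Cd44, 2 each for Cd80 and Vcam1 and 1 for each other gene. All 15 probes passed the filter on dim probes. The fit across the array held 22033 genes, each represented by its brightest kept probe.

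The cells were macrophages grown from bone marrow of C57BL/6 mice for 6 days with M-CSF from L929 cells. By their labels they were TRIF-KO, MyD88-KO, double-KO (without both MyD88 and TRIF) or wild-type, which carried neither deletion. Each genotype was cultured without serum for 1, 2, 4, 8 or 16 h, either with LPS at 200 ng/mL or untreated, and each of the 20 arrays set LPS-treated against untreated RNA of 1 genotype and time. A genotype thus had 5 arrays, 1 per time point, and its spread holds the differences between times. The labels do not say how the alleles were made, nor if each array had animals or cultures of its own, so p-values measure only the spread between these samples, which may be technical. In the fits of responses this spread also holds how time courses differ between genotypes, and all genotypes share it.

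LPS, a component of the outer membrane of Gram-negative bacteria, is sensed by the receptor Tlr4, which signals through the adapters MyD88 and TRIF. MyD88 leads rapidly to NF-kB and MAP kinases, while TRIF leads to the transcription factor Irf3, type I interferon and a further wave of NF-kB. CD40 receives help from T cells, CD80 and CD86 give the second signal to a T cell through CD28, and CD274 (PD-L1) restrains it through PD-1. ICAM-1 and VCAM-1 are ligands of leukocyte integrins, and CD44 is a receptor of hyaluronan.

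The Ticam1 gene, which encodes TRIF, read 10.81 ± 0.28 in untreated cells labelled TRIF-KO, 10.54 ± 0.19 in MyD88-KO cells, 7.28 ± 0.04 in double-KO and 10.65 ± 0.19 in wild-type cells (normalized log2 intensity, SD, n = 5 each). The transcript of the cells labelled TRIF-KO was thus at the wild-type level, so these are called the TRIF-KO-labelled cells, and every direction drawn from that label is drawn from the label alone. Myd88 read between 14.01 and 14.45 in the 4 groups, so its probe checks no label. All 10 macrophage markers were well above background on every array. Eif2s3y, a Y-linked gene, stood at 14.23 in TRIF-KO-labelled and at 14.22 in double-KO cells, against 6.59 for MyD88-KO and 6.50 for wild-type cells, so these groups differed in sex as well as genotype. No slide held the same time point of more than 1 genotype. Wild-type arrays lay on slides 1 and 2, TRIF-KO-labelled on 2 and 3, MyD88-KO on 3 and 4 and double-KO on 4 and 5. All wild-type and TRIF-KO-labelled arrays were scanned on day 1 and all double-KO arrays on day 2. Comparisons of these genotypes with double-KO cells, in response or in level, thus also compare slides and scan days. Per channel, 52.2% to 69.6% of non-control spots stood well above background, and the number of arrays limits the precision. Each of the 10 representative probes was well above background in both channels of all 20 arrays, and no spot of a member was saturated.

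LPS raised most of these genes in TRIF-KO-labelled, MyD88-KO and wild-type cells, while none of them passed the test in double-KO cells. In limma's moderated test over the mean of the 5 times (Benjamini-Hochberg adjusted over all genes, threshold 0.05), 7 members rose and 1 fell in TRIF-KO-labelled cells, where 29% of all genes tested were called in either direction, 12.8% higher and 16.2% lower. In MyD88-KO cells 8 rose and 1 fell, against 35.4% of all genes (16.7% higher, 18.6% lower), and in wild-type cells 7 rose and 1 fell, against 36.3% (16.7% higher, 19.6% lower). The member that fell in these 3 genotypes was Cd80 as read by its brightest probe. In double-KO cells 0 of the 10 passed, with 0 at an unadjusted p under 0.05, against 0.327% of all genes called (0.322% higher, 0.00454% lower). The SE used there was the shared one, such as 0.22 for Icam1 and 0.37 for Cd40. The double-KO ratios of these genes had an SD of only 0.04 and 0.11. The median log2 ratio of the 10 genes was 1.56 in TRIF-KO-labelled, 2.13 in MyD88-KO, 0.05 in double-KO and 1.96 in wild-type cells, beside medians over all genes between -0.02 and 0.00. These means hold any dye effect of a gene, since LPS-treated RNA was in Cy5 on 19 arrays. With the dye as a term, which rests on the swapped MyD88-KO array of 2 h, 0, 5, 0 and 1 members passed in the same order of genotypes. With slide as a fixed block the counts were 6, 7, 0 and 0. Fitting each genotype's 5 arrays alone gave 0, 0, 1 and 0 members, the 1 in double-KO cells being lower, so the calls rest on a spread shared over the 20 arrays. Here and below, member counts under alternative settings are given without the share of all genes called there. A changed count thus need not be particular to the members. Bulk RNA does not tell more RNA per cell from more cells of a kind.

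The number of members at or above a log2 ratio of 1, a 2-fold rise, grew to 4 h in the cells that responded. At 1, 2, 4, 8 and 16 h it was 2, 5, 8, 8 and 3 in TRIF-KO-labelled cells, beside 0.667%, 2.62%, 4.37%, 6.52% and 6% of all genes. In MyD88-KO cells it was 1, 5, 9, 8 and 7, beside 0.386%, 2.95%, 6.64%, 9.32% and 7.2%. Double-KO cells had 0 at every time, beside 0.00454%, 0.0636%, 0.173%, 0.499% and 0.454%. Wild-type cells had 3, 6, 9, 9 and 2, beside 0.832%, 4.63%, 8.16%, 7.32% and 4.92%. At 16 h the MyD88-KO array thus still held 7 members at this level, where the TRIF-KO-labelled array held 3 and the wild-type array 2.

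**Figure D1:**
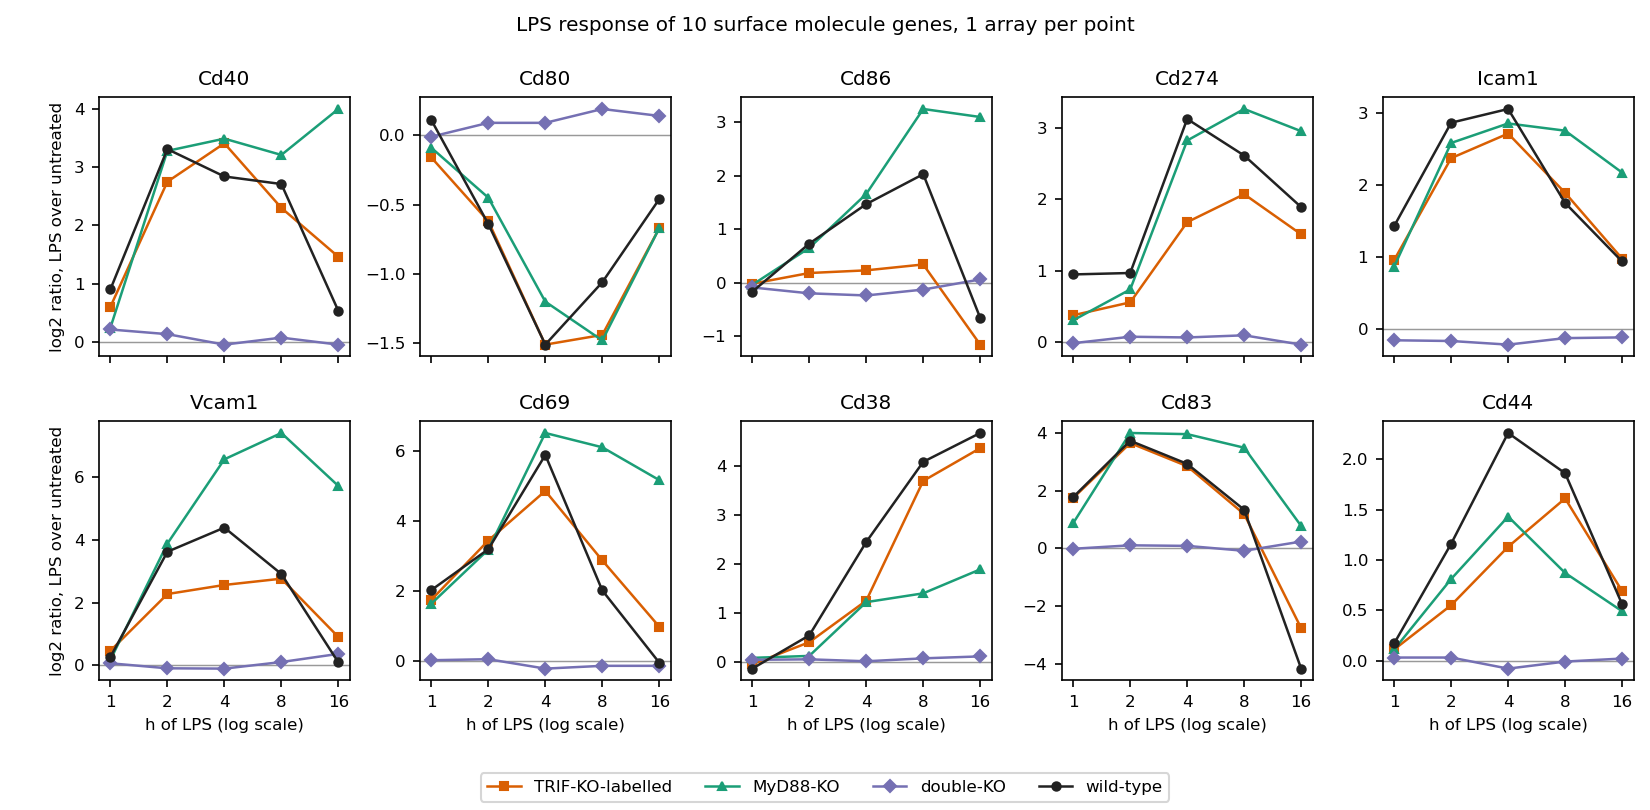
Log2 ratio of LPS-treated over untreated cells (vertical axis) against hours of LPS (horizontal axis, log scale) for the 10 genes, with 1 array per point and 1 line per genotype, and a scale of its own for each gene. The double-KO points lie between -0.24 and 0.36 in every panel, and at 16 h the MyD88-KO points of Cd40, Cd86, Vcam1 and Cd69 lie at 3.10 to 5.72, above the wild-type points at -0.66 to 0.53.

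Cd40 rose in all 3 responding genotypes. Its log2 ratios at 1, 2, 4, 8 and 16 h were 0.60, 2.75, 3.41, 2.30 and 1.46 in TRIF-KO-labelled cells and 0.24, 3.28, 3.49, 3.21 and 4.00 in MyD88-KO cells. They were 0.21, 0.13, -0.05, 0.07 and -0.05 in double-KO cells and 0.90, 3.31, 2.84, 2.71 and 0.53 in wild-type cells. From 2 h on every responding array lay above every double-KO array, and how many of all genes do likewise was not counted. At 16 h the ratio was 16-fold in MyD88-KO cells and small in wild-type cells. The fitted mean was 2.10 ± 0.37 (SE) in TRIF-KO-labelled (adjusted p = 0.0012), 2.85 ± 0.37 for MyD88-KO (2.8e-04) and 2.06 ± 0.37 for wild-type cells (0.0011). The Cd40 probe lies on chromosome 2 (mm9, 164897085 to 164897144, plus strand).

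Cd86, which together with CD80 binds CD28, rose in MyD88-KO cells. Its ratios over the 5 times were -0.02, 0.18, 0.23, 0.34 and -1.16 in TRIF-KO-labelled cells, -0.04, 0.65, 1.66, 3.25 and 3.10 in MyD88-KO cells and -0.17, 0.73, 1.47, 2.03 and -0.66 in wild-type cells. The MyD88-KO and wild-type arrays differed little up to 4 h and lay apart at 16 h, while no TRIF-KO-labelled array went above 0.34. The mean was 1.73 ± 0.38 in MyD88-KO cells (adjusted p = 0.0040), against -0.09 ± 0.38 for TRIF-KO-labelled (0.89) and 0.68 ± 0.38 for wild-type cells (0.17).

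Cd274 rose in the same 3 genotypes as Cd40. It read 0.38, 0.56, 1.68, 2.07 and 1.51 in TRIF-KO-labelled cells, 0.31, 0.74, 2.82, 3.26 and 2.95 in MyD88-KO cells and 0.95, 0.97, 3.12, 2.61 and 1.89 in wild-type cells. Its highest ratio came at 8 h in the TRIF-KO-labelled (4.20-fold) and MyD88-KO cells (9.58-fold) and at 4 h in wild-type cells (8.69-fold), and it stayed above 1.5 at 16 h in all 3. The means were 1.24 ± 0.25 (adjusted p = 0.0027), 2.01 ± 0.25 (2.1e-04) and 1.91 ± 0.25 (1.5e-04) in TRIF-KO-labelled, MyD88-KO and wild-type cells.

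Cd83, an immunoglobulin family antigen of mature dendritic cells and activated B cells, had a transient time course. Its ratios were 1.75, 3.65, 2.85, 1.19 and -2.76 in TRIF-KO-labelled cells, 0.88, 4.00, 3.96, 3.49 and 0.78 in MyD88-KO cells and 1.78, 3.73, 2.93, 1.34 and -4.16 in wild-type cells. At 2 h it stood between 12.6-fold and 16-fold above untreated cells in all 3, and at 16 h it lay below untreated cells in the TRIF-KO-labelled and wild-type pair of arrays. In wild-type cells the LPS-treated level was 17.93 at 2 h and 10.24 at 16 h, while the untreated level was 14.20 and 14.40 at these times. A mean over such times says little, and it passed in MyD88-KO cells (2.62 ± 0.62, adjusted p = 0.0061) but not in TRIF-KO-labelled (1.33 ± 0.62, 0.12) or wild-type cells (1.12 ± 0.62, 0.17).

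The brightest probe of Cd80 fell. On this probe (mm9, chromosome 16, 38486772 to 38486831) the ratios were -0.16, -0.62, -1.51, -1.44 and -0.67 in TRIF-KO-labelled cells, -0.09, -0.45, -1.20, -1.48 and -0.67 in MyD88-KO cells and 0.11, -0.64, -1.51, -1.06 and -0.46 in wild-type cells. Double-KO cells read -0.01, 0.09, 0.09, 0.19 and 0.14. The means were -0.88 ± 0.14 (adjusted p = 7.5e-04), -0.78 ± 0.14 (0.0018) and -0.71 ± 0.14 (0.0020) in TRIF-KO-labelled, MyD88-KO and wild-type cells. The other Cd80 probe did not fall, and with the mean of both probes the call in wild-type cells was lost (-0.18, adjusted p = 0.070).

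Icam1, the ligand of the integrin LFA-1, rose in all 3 responding genotypes. Its probe lies at position 1588 of its transcript (mm9, chromosome 9, 20832290 to 20832349, plus strand). Its ratios were 0.96, 2.37, 2.71, 1.89 and 0.98 in TRIF-KO-labelled cells, 0.87, 2.58, 2.85, 2.75 and 2.17 in MyD88-KO cells, -0.15, -0.16, -0.21, -0.12 and -0.11 in double-KO cells and 1.43, 2.86, 3.05, 1.75 and 0.94 in wild-type cells. Each responding genotype was highest at 4 h. No array of these genotypes overlapped those of double-KO cells, and how many of all genes do likewise was not counted. The means were 1.78 ± 0.22 (adjusted p = 1.5e-04), 2.24 ± 0.22 (3.9e-05) and 2.01 ± 0.22 (4.6e-05) in TRIF-KO-labelled, MyD88-KO and wild-type cells.

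Vcam1, the ligand of the integrin VLA-4, reached the highest ratio of the 10 genes. The ratios were 0.46, 2.27, 2.56, 2.76 and 0.90 in TRIF-KO-labelled cells, 0.17, 3.88, 6.57, 7.41 and 5.72 in MyD88-KO cells and 0.26, 3.62, 4.39, 2.91 and 0.09 in wild-type cells. At 8 h the MyD88-KO array stood 170-fold above untreated cells, and at 16 h it was still far above the other genotypes. The wild-type ratio on this probe was 0.09 by then, while the other Vcam1 probe read 1.41. The means were 1.79 ± 0.61 in TRIF-KO-labelled (adjusted p = 0.040), 4.75 ± 0.61 for MyD88-KO (2.6e-04) and 2.25 ± 0.61 for wild-type cells (0.011). The call in TRIF-KO-labelled cells was lost when any 1 of their arrays was left out (1.57 to 1.94, adjusted p = 0.078 to 0.13), and that in wild-type cells without their 2 h array (1.86, 0.068) or their 4 h array (1.92, 0.067).

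Cd44 rose less. On its brightest probe it read 0.11, 0.55, 1.13, 1.61 and 0.69 in TRIF-KO-labelled cells, 0.11, 0.81, 1.43, 0.87 and 0.49 in MyD88-KO cells and 0.17, 1.16, 2.26, 1.86 and 0.56 in wild-type cells. All 15 of these values were positive, and the highest in each genotype came at 4 or 8 h. The means were 0.82 ± 0.17 (adjusted p = 0.0035), 0.74 ± 0.17 (0.0058) and 1.2 ± 0.17 (2.8e-04) in TRIF-KO-labelled, MyD88-KO and wild-type cells. Another Cd44 probe, A_55_P2064043, was about as bright (untreated mean 13.28, against 13.11, in wild-type cells). That probe read down to -0.50 in wild-type cells at 1 h and -1.09 in MyD88-KO cells at 16 h, and its mean passed in no genotype.

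Cd69, a C-type lectin that appears early on activated leukocytes, responded strongly. Its ratios were 1.74, 3.44, 4.86, 2.87 and 0.97 in TRIF-KO-labelled cells, 1.63, 3.18, 6.52, 6.11 and 5.17 in MyD88-KO cells and 2.02, 3.19, 5.89, 2.01 and -0.06 in wild-type cells. At 4 h it stood 29-fold, 91.8-fold and 59.3-fold above untreated cells in these genotypes, in that order. The LPS-treated level at 4 h was 16.46 for MyD88-KO against 16.62 for wild-type, and the untreated level 9.94 against 10.73. At 16 h the ratio of the MyD88-KO array lay far above those of the TRIF-KO-labelled and wild-type arrays. The means were 2.78 ± 0.57 (adjusted p = 0.0029), 4.52 ± 0.57 (2.3e-04) and 2.61 ± 0.57 (0.0034) in TRIF-KO-labelled, MyD88-KO and wild-type cells.

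Cd38, an ectoenzyme that consumes NAD, was highest at 16 h in every responding genotype. It read -0.05, 0.40, 1.25, 3.70 and 4.37 in TRIF-KO-labelled cells, 0.08, 0.12, 1.22, 1.40 and 1.89 in MyD88-KO cells, 0.04, 0.05, 0.01, 0.07 and 0.11 in double-KO cells and -0.14, 0.54, 2.45, 4.09 and 4.68 in wild-type cells. At 8 and 16 h the MyD88-KO arrays lay between the double-KO arrays and those of the other genotypes. The means were 1.93 ± 0.42 in TRIF-KO-labelled (adjusted p = 0.0040), 0.94 ± 0.42 in MyD88-KO (0.094, not passing) and 2.32 ± 0.42 in wild-type cells (0.0011).

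The slope of the log2 ratio over log2 hours passed for Cd38 in all 3 responding genotypes, and slopes were not compared between members. Cd83 had slopes of -1.15 ± 0.54 in TRIF-KO-labelled (limma, adjusted p = 0.24) and -1.43 ± 0.54 in wild-type cells (0.16), which did not pass. The slope of Cd38 was 1.21 ± 0.12 per doubling of time in TRIF-KO-labelled cells (limma, adjusted p = 1.2e-04), 0.49 ± 0.12 in MyD88-KO cells (0.017), 0.02 ± 0.12 in double-KO cells (1) and 1.32 ± 0.12 in wild-type cells (4.8e-05). It was the 1 member with a slope called in the TRIF-KO-labelled cells (7.07% of all genes called, 3.32% higher and 3.75% lower) and in wild-type cells (5.5%, 2.91% higher and 2.59% lower). In MyD88-KO cells (10.3%, 5.51% higher and 4.75% lower) Cd86 with 0.89 ± 0.22 (adjusted p = 0.020) and Cd274 with 0.78 ± 0.19 (0.017) passed as well. Without the MyD88-KO array of 1 h these 3 calls were lost (adjusted p = 0.13 for Cd86, 0.16 for Cd274 and 0.078 for Cd38), and with dye, scan day or slide as a fixed term the count in MyD88-KO cells was 0. The steepest slope there, of Vcam1, did not pass (1.46 ± 0.47, 0.065), while its other probe did in the fit over all kept probes (1.25 ± 0.20, 0.0020). With slide as a fixed block the count in TRIF-KO-labelled cells was 0 as well. With each genotype fitted alone no slope passed. In double-KO cells 0 members passed (0 at an unadjusted p under 0.05, and 0% of all genes). The differences between slopes were added after these values had been seen. For Cd38 the slope in MyD88-KO cells was lower than in TRIF-KO-labelled cells by -0.72 ± 0.16 (adjusted p = 0.026, 3.86% of all genes called) and lower than in wild-type cells by -0.83 ± 0.16 (0.036, 1.07% called). Both calls were lost with slide as a random block, with scan day as a block, without the MyD88-KO array of 1 h or of 16 h, and in the fit to the 2 genotypes alone, and the second also without any 1 double-KO array. Without the 16 h arrays the differences stood at -0.70 (adjusted p = 0.20) and -0.96 (0.16).

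The comparisons with double-KO cells set the responses of the genotypes labelled as lacking 1 adapter, and of wild-type cells, against cells labelled as lacking both. Cd80 stands in them for its brightest probe only. TRIF-KO-labelled cells responded more than double-KO cells for Cd69 (2.87 ± 0.81, adjusted p = 0.048), Cd40 (2.04 ± 0.52, 0.036) and Icam1 (1.93 ± 0.31, 0.0049), and less for the brightest Cd80 probe (-0.98 ± 0.20, 0.015, and -0.31 at 0.094 with the mean of both probes). These were 4 of 10 members, against 6.59% of all genes (3.54% higher, 3.05% lower). Cd274 (1.2 ± 0.35, 0.058), Cd44 (0.82 ± 0.25, 0.059) and Cd38 (1.88 ± 0.59, 0.071) missed the threshold, as did Vcam1 (1.73 ± 0.86, 0.24) and Cd83 (1.26 ± 0.88, 0.42). Cd86 stood at 0.03 ± 0.53 (0.98), with a 95% interval from -1.11 to 1.18. The count was 1 with slide as a random block, 0 without the block of time points, and 1 when the 4 h or the 8 h array of either genotype was left out. It was 2 without either 16 h array or the TRIF-KO-labelled array of 2 h, and 7 without the double-KO array of 1 h.

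MyD88-KO cells responded more than double-KO cells for 6 members and less for 1, against 9.84% of all genes called (5.61% higher, 4.23% lower). The higher ones were Vcam1 (4.69 ± 0.86, limma, adjusted p = 0.011), Cd69 (4.62 ± 0.81, 0.0090), Cd40 (2.78 ± 0.52, 0.012), Icam1 (2.39 ± 0.31, 0.0015), Cd274 (1.97 ± 0.35, 0.010) and Cd86 (1.85 ± 0.53, 0.046). The brightest Cd80 probe was the lower one (-0.88 ± 0.20, 0.025). The call of Cd86 held in 7 of 25 fits that left out an array or a time (1.32 to 2.29, adjusted p up to 0.27). Cd44 (0.74 ± 0.25, 0.065), Cd83 (2.55 ± 0.88, 0.073) and Cd38 (0.88 ± 0.59, 0.34) did not pass. Slide as a random block left 5, the fit without the block of time points 1, and the double-KO array of 4 h left out 4.

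Double-KO cells responded less than wild-type cells for 6 members and more for 1, against 12% of all genes called (5.91% lower, 6.05% higher). The lower ones were Cd69 (-2.71 ± 0.81, limma, adjusted p = 0.044), Cd38 (-2.27 ± 0.59, 0.027), Icam1 (-2.15 ± 0.31, 0.0018), Cd40 (-1.99 ± 0.52, 0.027), Cd274 (-1.87 ± 0.35, 0.0080) and Cd44 (-1.2 ± 0.25, 0.010). The Cd44 value is that of its brightest probe. In the fit over all kept probes, where 12.7% were called, the other bright Cd44 probe did not pass (-0.65 ± 0.33, 0.20). The 2 dim Cd44 probes did (-1.27 ± 0.33, 0.026, and -1.2 ± 0.37, 0.045). The brightest Cd80 probe was higher (0.81 ± 0.20, 0.022, and 0.20 at 0.23 with the mean of both probes), and Vcam1 (-2.19 ± 0.86, 0.10), Cd83 (-1.05 ± 0.88, 0.45) and Cd86 (-0.80 ± 0.53, 0.33) did not pass. Slide as a random block left 1 and the fit without the block of time points 1. With slide as a fixed block 0 passed, and Cd40 (2.37), Cd44 (0.30) and Cd80 (-0.01) turned in sign, each at an adjusted p of 0.99 or 1. Leaving out the double-KO array of 4 h or 8 h, or the wild-type array of 4 h or 8 h, left 3 each, and the wild-type array of 2 h left out 4. All 3 comparisons share the double-KO arrays, and each fell to 0 calls when only the 2 genotypes compared were fitted.

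**Figure D2:**
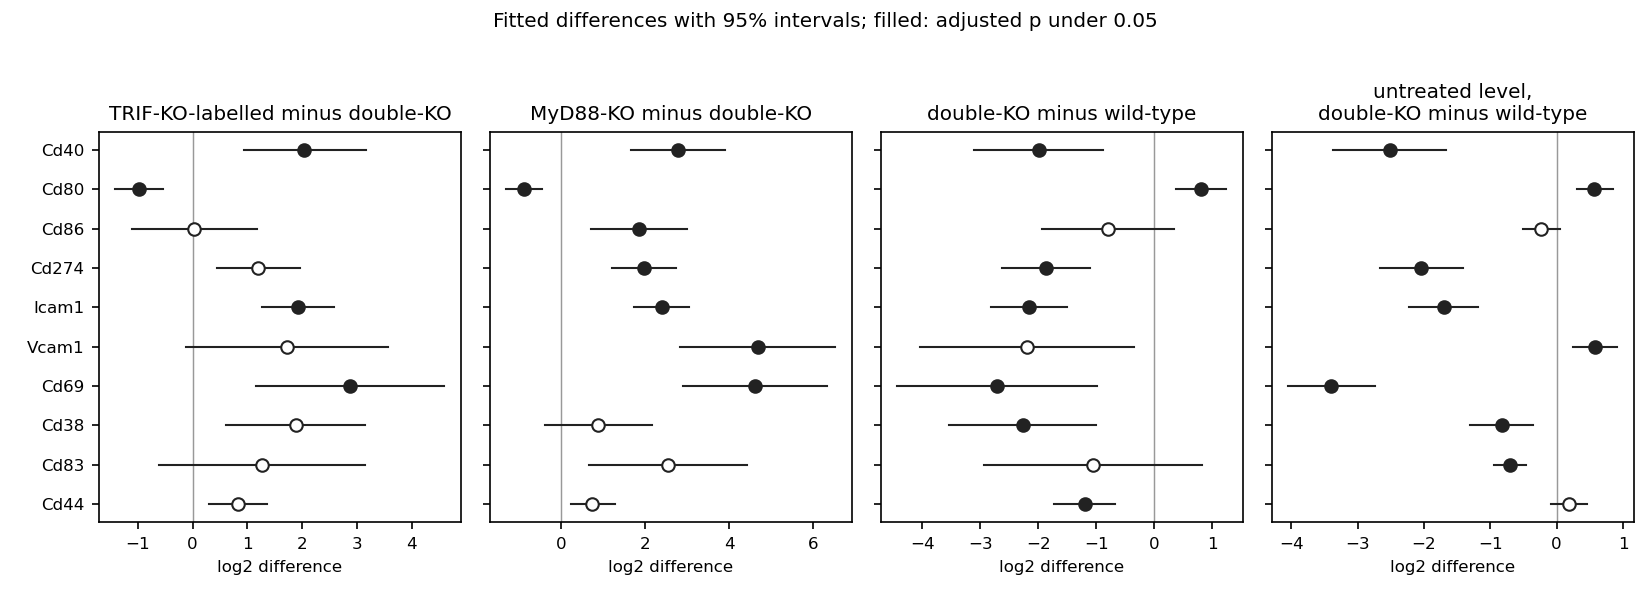
Fitted log2 differences of the 10 genes with 95% intervals, for the LPS response of TRIF-KO-labelled minus double-KO, MyD88-KO minus double-KO and double-KO minus wild-type cells, and for the untreated level of double-KO minus wild-type cells. Filled points passed an adjusted p of 0.05 over all genes. Cd80, drawn from its brightest probe, lies on the opposite side of 0 from Cd40, Icam1 and Cd69 in all 4 panels.

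Between genotypes that responded no member passed, and no gene of the array did in any of these 3 comparisons (0% called by limma, with 1658 genes for TRIF-KO-labelled minus wild-type, 3190 for MyD88-KO minus wild-type and 4101 for MyD88-KO minus TRIF-KO-labelled at an unadjusted p under 0.05). MyD88-KO minus TRIF-KO-labelled stood at the highest values for Vcam1 (2.96 ± 0.86, adjusted p = 0.12, 95% interval 1.11 to 4.80) and Cd86 (1.81 ± 0.53, 0.12, 0.67 to 2.96). MyD88-KO minus wild-type stood at 2.50 ± 0.86 for Vcam1 (0.24, 0.65 to 4.34) and 1.91 ± 0.81 for Cd69 (0.31, 0.19 to 3.64). For Cd38 it stood at -1.38 ± 0.59 (0.31, -2.65 to -0.11). The mean LPS-treated level of Cd69 was 13.96 for MyD88-KO against 13.72 for wild-type, and the untreated level 9.43 against 11.11. These genotypes thus differed in Cd69 mainly before LPS. For Vcam1 the LPS-treated level was 12.8 against 10.4 and the untreated level 8.05 against 8.15. For Cd38 they were 8.48 against 10.88 and 7.54 against 8.56. In TRIF-KO-labelled minus wild-type cells the values lay between -0.77 for Cd86 (interval -1.91 to 0.38) and 0.21 for Cd83 (-1.67 to 2.09). These intervals leave room for differences of 2-fold and more, so likeness of the genotypes is not shown. Leaving out the MyD88-KO array of 1 h gave 2 members for MyD88-KO minus TRIF-KO-labelled and 1 for MyD88-KO minus wild-type.

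Members also differed before any LPS was given. In untreated cells Cd69 read 7.97, 7.64, 7.62, 7.73 and 7.60 at 1, 2, 4, 8 and 16 h in double-KO cells, against 10.92, 10.28, 10.73, 11.81 and 11.82 in wild-type cells (normalized log2 intensity). Cd40 read 10.99, 11.13, 11.40, 11.20 and 11.33 in double-KO cells, against 12.62, 13.09, 15.07, 14.16 and 13.70 in wild-type cells. Neither gene's double-KO range overlapped the wild-type range. How many of all genes do likewise was not counted, and 26.1% of all genes were called between these groups in the fit below. Icam1 lay between 9.40 and 10.12 in double-KO and between 10.93 and 11.99 in wild-type cells, and Cd274 between 10.62 and 12.17 in double-KO and between 12.41 and 14.04 in wild-type cells.

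In the fit of untreated levels double-KO cells were below wild-type cells for 6 members and above for 2, against 26.1% of all genes called (10.6% lower, 15.5% higher). The lower ones were Cd69 (-3.40 ± 0.31, limma, adjusted p = 2.3e-06), Cd40 (-2.52 ± 0.40, 3.6e-04), Cd274 (-2.04 ± 0.30, 1.8e-04), Icam1 (-1.70 ± 0.24, 1.7e-04), Cd38 (-0.83 ± 0.22, 0.013) and Cd83 (-0.71 ± 0.11, 4.3e-04). Vcam1 (0.58 ± 0.16, 0.014) and the brightest Cd80 probe (0.57 ± 0.13, 0.0049) were higher, while Cd44 (0.18 ± 0.12, 0.29) and Cd86 (-0.23 ± 0.13, 0.22) did not pass. With slide as a random block 5 members passed, and Cd69, Icam1, Cd83 and Cd80 did when slide was a fixed block. The sexes by Eif2s3y differed between these 2 groups as well. All wild-type arrays were scanned on day 1 and all double-KO arrays on day 2, so scan day differed with genotype too. Scan day was not tried as a block for untreated levels. In the same contrast 2 of 10 macrophage markers were higher and 3 lower. C1qa read 13.50 in double-KO and 14.92 in wild-type cells, but Itgam 14.53 and 13.99. Of 7 neutrophil and mast cell markers 1 was higher and 2 lower. Ly6g read 7.70 in double-KO and 10.29 in wild-type cells, but Camp 11.64 and 10.92, and Elane 13.15 and 12.28. Of 8 stromal and endothelial markers 2 were higher and 3 lower, of 7 dendritic cell markers 2 and 2, of 8 T and NK cell markers 1 and 1, and of 6 B cell markers 1 and 1. The part of these in the result was not tested.

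MyD88-KO cells, with 4 arrays because the swapped array was left out of this fit, were below wild-type cells for Cd69 (-1.72 ± 0.33, adjusted p = 0.0062) and Cd38 (-1.11 ± 0.24, 0.011), against 10% of all genes called (3.67% lower). Untreated Cd69 read 9.31, 9, 9.94, 9.77 and 9.15 there, between the double-KO and the wild-type values at every time. Neither passed without the block of time points or without the 8 h arrays, and Cd38 did not without the MyD88-KO array of 16 h (-1, 0.054) or the 4 h arrays (-1.22, 0.051). The MyD88-KO arrays of 4, 8 and 16 h were scanned on day 2, and all wild-type arrays on day 1. In the same contrast 4 of 7 measured neutrophil and mast cell markers were higher and 0 lower, with levels from 6.77 to 12.95 in MyD88-KO and from 6.89 to 12.28 in wild-type cells, and their part in the result was not tested. In TRIF-KO-labelled minus wild-type cells 0 members passed (0.44% of all genes called), with values from -0.43 ± 0.22 for Cd38 (adjusted p = 0.41) to 0.22 ± 0.24 for Icam1 (0.72), and with Cd83 (-0.33 ± 0.11, 0.23) as the 1 member at an unadjusted p under 0.05.

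Untreated levels moved with time in serum-free medium. Averaged over genotypes, the untreated level of Cd274 rose by 0.40 ± 0.07 per doubling of time (limma, adjusted p = 9.1e-04), Cd40 by 0.39 ± 0.13 (0.031), Cd38 by 0.18 ± 0.05 (0.0086) and Cd83 by 0.09 ± 0.03 (0.021), while Cd44 fell by 0.27 ± 0.02 (2.2e-06) and the brightest Cd80 probe by 0.16 ± 0.03 (0.0011). These were 6 of 10 members, against 33% of all genes called (16.5% in each direction). Without the MyD88-KO array of 1 h the slope was 0.11 for Cd40 (adjusted p = 0.67) and 0.06 for Cd83 (0.25). Without the 16 h arrays it was 0.07 for Cd38 (0.42), 0.04 for Cd83 (0.48) and -0.13 for Cd80 (0.073). With loess within arrays only, it turned to -0.02 for Cd38 and -0.06 for Cd83. Untreated Cd40 read 12.42, 12.19, 13.60, 15.23 and 14.12 in TRIF-KO-labelled and 11.01, 12.21, 13.74, 14.31 and 12.51 in MyD88-KO cells, whereas the double-KO values given above spanned 10.99 to 11.40. At 8 and 16 h the ratios of Cd40 thus set the LPS-treated level against an untreated level above that of 1 h in the genotypes that responded. In MyD88-KO cells the untreated level fell from 14.31 at 8 h to 12.51 at 16 h. The LPS-treated level fell less, from 17.52 to 16.52, so the ratio rose from 3.21 to 4. LPS-treated Cd69 read 16.46 at 4 h and 14.32 at 16 h in MyD88-KO cells. The wild-type values were 16.62 and 11.76. Untreated Cd69 at 16 h was 9.15 for MyD88-KO, against 11.82 for wild-type. The gap in the Cd69 ratio at 16 h thus lay in both channels. LPS-treated Cd40 at 16 h was 16.52 for MyD88-KO against 14.22 for wild-type, and untreated Cd40 12.51 against 13.7.

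**Figure D3:**
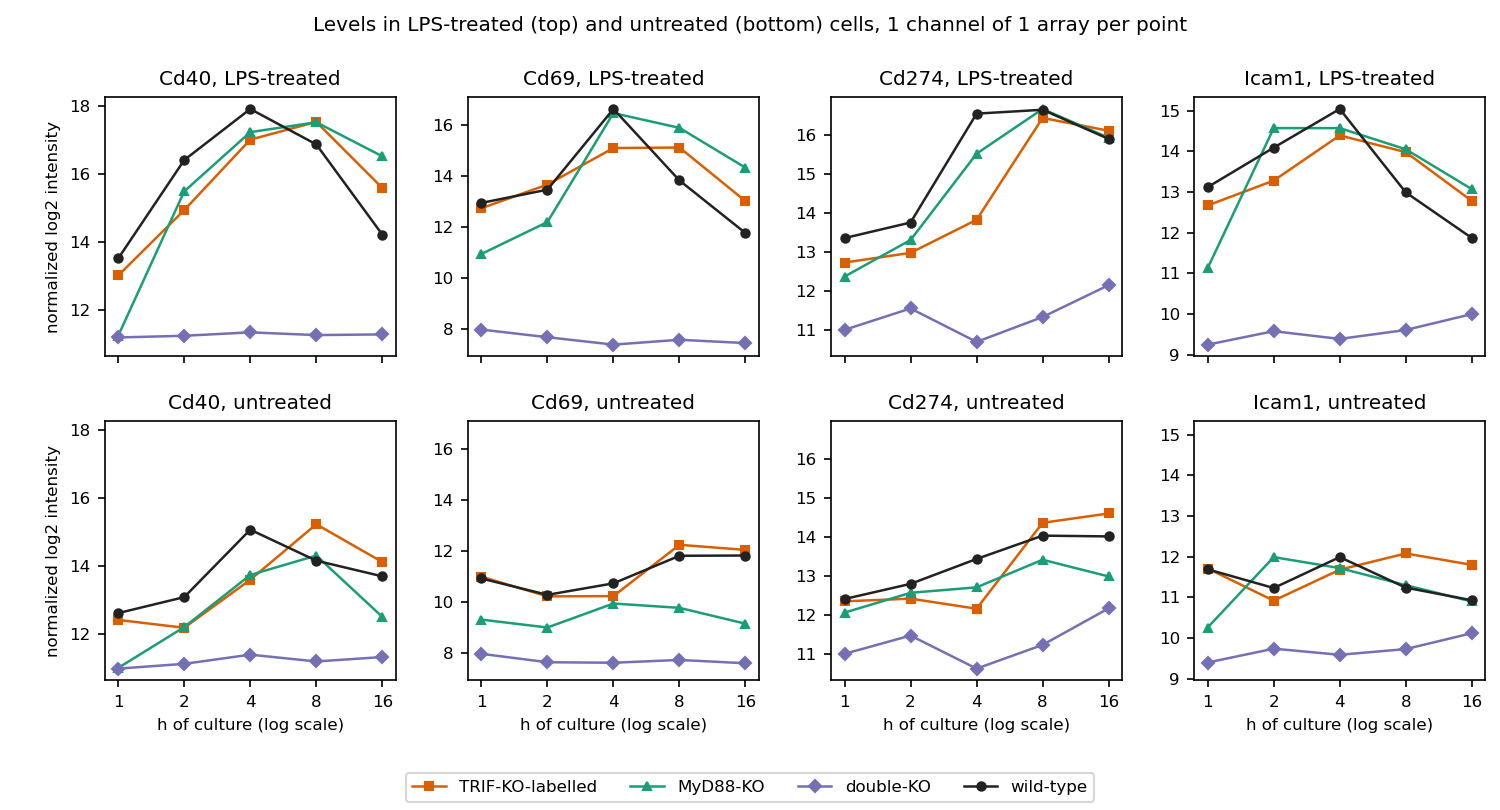
Normalized log2 intensity of Cd40, Cd69, Cd274 and Icam1 (vertical axis, shared by both panels of a gene) against hours of culture (log scale) in LPS-treated cells (top) and untreated cells (bottom), with 1 channel of 1 array per point. The double-KO points are the lowest at 2 to 16 h in all panels, and untreated Cd40 spans 10.99 to 11.40 in double-KO cells against 12.62 to 15.07 in wild-type cells.

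Cd44, Vcam1 and Cd80 were read by more than 1 probe, and the probes of a gene did not always move together. CD44 transcripts are known to differ by variable exons in the middle of the gene. Of the 4 Cd44 probes, A_55_P2166488 starts at position 1777 of the transcript that the files name, A_55_P2166486 at 1965, A_55_P2166501 at 2614 and A_55_P2064043 at 5494. Where these positions lie relative to exons was not checked against an annotation. On mm9 the first 3 lie on the minus strand of chromosome 2, at chr2:102677971-102678030, chr2:102672645-102672704 and chr2:102654278-102654337. The 3 are shown since their time courses differed, in lower case throughout, as printed on the array:
Cd44 A_55_P2166488: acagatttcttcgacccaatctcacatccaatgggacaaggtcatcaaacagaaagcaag
Cd44 A_55_P2166486: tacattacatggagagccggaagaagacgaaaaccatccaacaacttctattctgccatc
Cd44 A_55_P2166501: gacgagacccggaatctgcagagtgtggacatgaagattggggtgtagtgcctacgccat

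The probes at positions 1777 and 1965 were dim, and both were highest at 2 h in every responding genotype. Probe A_55_P2166488 read 0.00, 1.16, 0.70, 0.69 and -0.07 over the 5 times in TRIF-KO-labelled cells, -0.45, 2.81, 1.06, 0.10 and -0.51 in MyD88-KO cells and 0.42, 2.69, 1.52, 0.67 and -0.07 in wild-type cells. Probe A_55_P2166486 read 1.06, 2.21 and 2.74 at 2 h in the same order of genotypes, where both channels were well above background. At 16 h at least 1 channel of this probe was not well above background in each of the 3 genotypes, and neither channel of A_55_P2166488 was in TRIF-KO-labelled cells, so those ratios were not measured on both sides. In TRIF-KO-labelled cells the untreated channel of both, and in wild-type cells that of A_55_P2166486, was not well above background at 8 h either, and the fitted means below hold such arrays. The brightest probe, A_55_P2166501, was highest at 8 h in TRIF-KO-labelled and at 4 h in MyD88-KO and wild-type cells, with 0.55, 0.81 and 1.16 at 2 h. In the fit over all kept probes neither passed in TRIF-KO-labelled cells (0.35 ± 0.23, limma, adjusted p = 0.28, on A_55_P2166486 and 0.50 ± 0.26, 0.17, on A_55_P2166488). In MyD88-KO cells A_55_P2166486 rose (0.64 ± 0.23, 0.046), with 0.60 ± 0.26 (0.083) on the other, and in wild-type cells both rose (1.18 ± 0.23, 0.0019, and 1.04 ± 0.26, 0.0070). In this fit the share of probes called was 28.9% for TRIF-KO-labelled, 36.1% for MyD88-KO and 36.3% for wild-type cells. The fourth probe, A_55_P2064043, was about as bright as A_55_P2166501. It passed in no genotype and reached -1.09 in MyD88-KO cells at 16 h, where the brightest probe read 0.49.

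The other Vcam1 probe, A_52_P520495, lies at position 842 of its transcript (mm9, chr3:115828953-115829012, minus strand), and is shown because it, too, was highest in MyD88-KO cells from 4 h on:
Vcam1 A_52_P520495: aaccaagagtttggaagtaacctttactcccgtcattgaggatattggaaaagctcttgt

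It read -0.10, 0.69, 0.52, 1.38 and 0.96 in TRIF-KO-labelled cells, -0.24, 2.11, 3.97, 4.78 and 4.67 in MyD88-KO cells and 0.27, 2.31, 2.31, 2.17 and 1.41 in wild-type cells. MyD88-KO cells were highest from 4 h on, while TRIF-KO-labelled and wild-type cells changed places at 16 h against the brighter probe. The untreated channel was not well above background on 3 of 5 arrays of TRIF-KO-labelled, 2 of MyD88-KO and 3 of wild-type cells, nor the LPS-treated channel at 1 h for TRIF-KO-labelled and MyD88-KO cells, so those ratios were not measured on both sides. In double-KO cells the LPS-treated channel was not well above background on any of 5 arrays, so this probe is not compared with them. With these arrays in the fit, its mean did not pass in TRIF-KO-labelled cells (0.69 ± 0.41, limma, adjusted p = 0.22) and passed in MyD88-KO (3.06 ± 0.41, 3.2e-04) and wild-type cells (1.69 ± 0.41, 0.0060).

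The 2 Cd80 probes disagreed. The brightest lies at position 1457 of its transcript, and A_66_P130432 at 872 (mm9, chr16:38479343-38479402, plus strand), and is shown as the probe that did not fall:
Cd80 A_66_P130432: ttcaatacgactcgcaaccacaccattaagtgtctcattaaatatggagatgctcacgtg

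It read 0.08, 0.39, 0.35, 0.27 and 0.37 in TRIF-KO-labelled cells, 0.00, 0.13, 0.31, -0.18 and -0.23 in MyD88-KO cells, -0.01, -0.04, -0.10, -0.01 and -0.20 in double-KO cells and 0.18, 0.50, 0.93, 0.00 and 0.11 in wild-type cells. Its mean rose in TRIF-KO-labelled cells (0.29 ± 0.09, limma, adjusted p = 0.022), stood at 0.00 ± 0.09 in MyD88-KO cells (0.98) and rose in wild-type cells (0.34 ± 0.09, 0.0076), and it was lower in double-KO than in wild-type cells (-0.41 ± 0.12, 0.041), the opposite of the brightest probe. This probe was dim, at 6.99 to 8.56, and at 16 h it was not well above background in LPS-treated double-KO cells nor in either channel of wild-type cells. Values given for Cd80 in the comparisons are those of its brightest probe, and a direction for the gene is not settled by these probes.

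**Figure D4:**
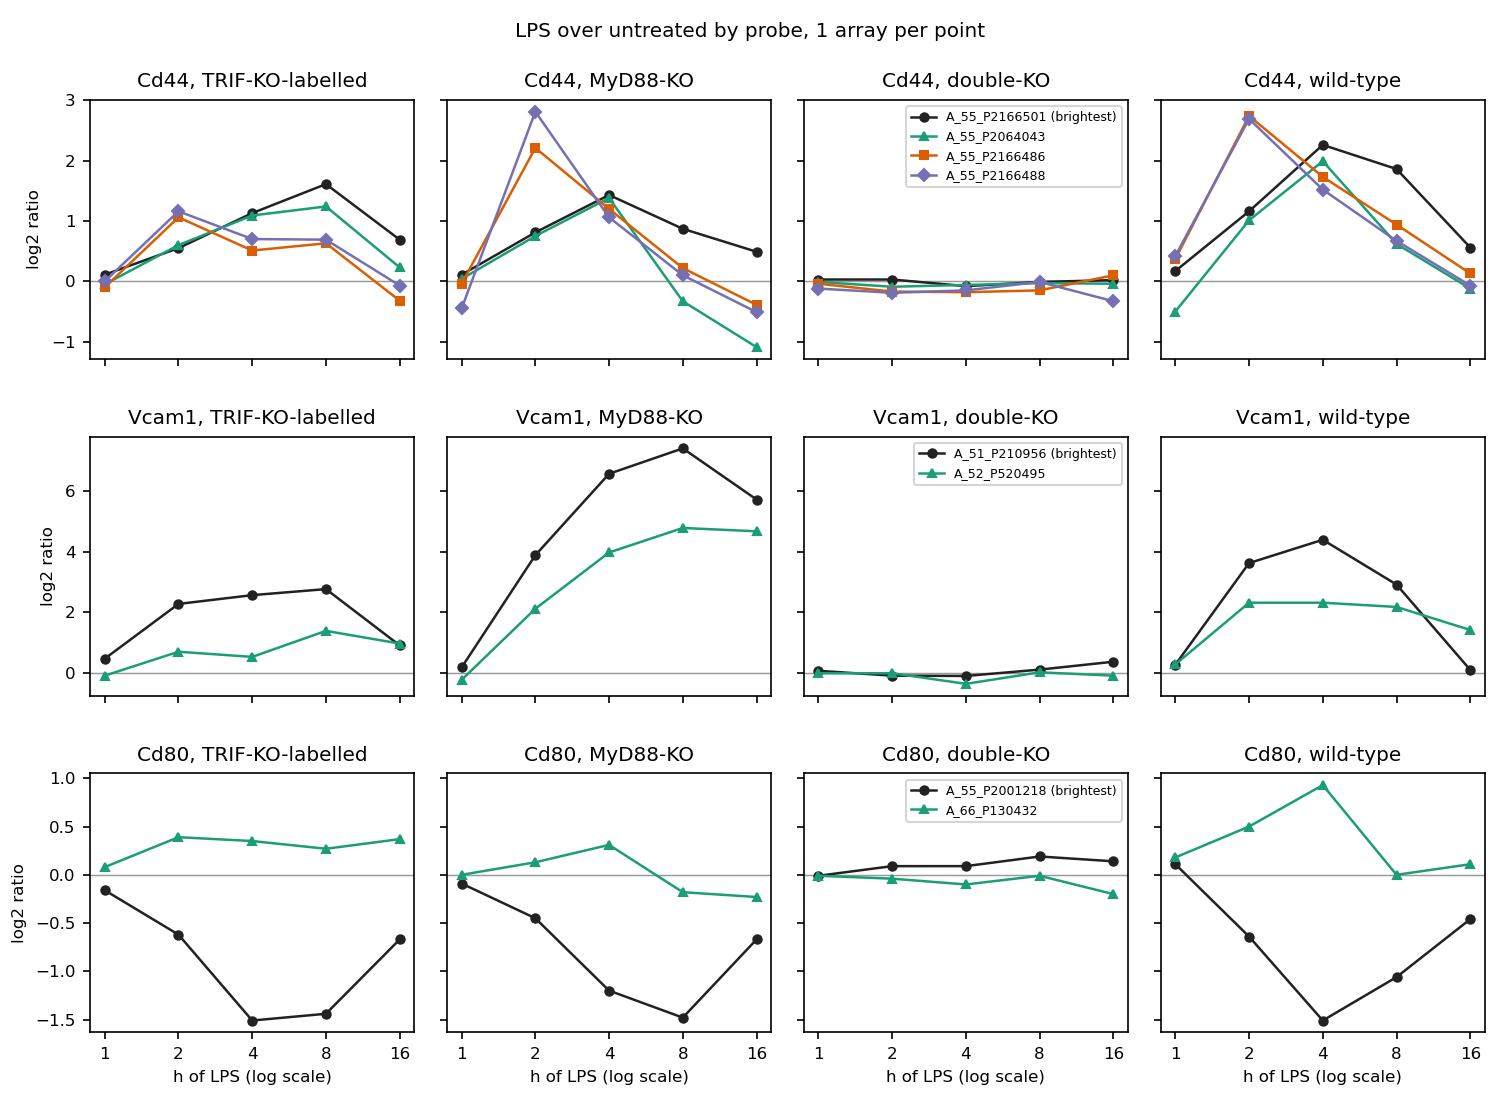
Log2 ratio of LPS-treated over untreated cells (vertical axis) against hours of LPS (log scale) for each probe of Cd44, Vcam1 and Cd80, with 1 column per genotype and 1 array per point. In MyD88-KO and wild-type cells 2 of the 4 Cd44 probes are highest at 2 h, with 2.21 to 2.81, and the other two at 4 h, and the Cd80 probes lie on opposite sides of 0 from 2 h to 4 h in the 3 responding genotypes.

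Promoter sequences, 250 bases before to 50 after the start, were given by RefSeq (GRCm38.p6) for 5 members, namely Cd44, Cd38, Icam1, Cd80 and Cd274. They were searched on both strands for GGAAATTCC, a form of the kappa-B site, for the kappa-B consensus and for TTCNNNGAA, the STAT motif. The search also took the interferon response motif and TGANTCA, a loose form of the AP-1 motif that allows any base in the middle. Icam1 was the only one of the 5 with GGAAATTCC, which starts 153 bases before its start site and occurs in 0.317% of 32851 promoters. It also held TTCNNNGAA at 42 bases before the start, as TTCCCGGAA, a motif found in 8.3% of promoters. Cd80 held this loose form, TGANTCA, at 42 bases before its start, as TGATTCA, and 7.81% of promoters hold TGANTCA. The interferon response motif (3.44% of promoters) and the kappa-B consensus (4.51%) were in none of the 5 windows. Cd274 and Cd44 rose in all 3 responding genotypes as Icam1 did, and their windows held none of these motifs. A part of the motifs in the responses was not tested. The Icam1 promoter is shown because it held matches, with its 250 bases before the start (chr9:21015690-21015939, plus strand) and both matches in capitals:
Icam1: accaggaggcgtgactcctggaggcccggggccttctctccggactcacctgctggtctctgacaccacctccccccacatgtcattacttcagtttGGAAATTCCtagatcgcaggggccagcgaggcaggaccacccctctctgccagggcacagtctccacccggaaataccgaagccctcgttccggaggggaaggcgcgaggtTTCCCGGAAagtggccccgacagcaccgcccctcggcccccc

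Other genes of the same functions were taken from lists that were chosen with earlier results of these data known. For each list below the share of all genes is 12.8% higher and 16.2% lower for TRIF-KO-labelled, 16.7% and 18.6% for MyD88-KO, 0.322% and 0.00454% for double-KO, and 16.7% and 19.6% for wild-type cells. Of 10 signal partners of CD40, 7 rose and 1 fell in TRIF-KO-labelled cells, 9 rose and 1 fell in MyD88-KO cells, 0 passed in double-KO cells and 6 rose in wild-type cells, with medians of 1.06, 1.18, -0.02 and 1.17. Traf1, which binds the tails of TNF receptors, rose by 3.34 ± 0.35 in TRIF-KO-labelled (limma, adjusted p = 6.0e-05), 3.32 ± 0.35 for MyD88-KO (6.8e-05) and 3.42 ± 0.35 for wild-type cells (3.3e-05). Map3k14, the kinase of the noncanonical NF-kB pathway, fell by 0.69 ± 0.19 in TRIF-KO-labelled (0.016) and 0.54 ± 0.19 in MyD88-KO cells (0.043). Untreated Traf1 was lower in double-KO than in wild-type cells by -2.32 ± 0.19 (8.1e-07).

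Of 14 costimulatory ligands and receptors of the TNF superfamily, 8 rose and 2 fell in TRIF-KO-labelled cells, 9 rose in MyD88-KO, 0 passed in double-KO and 8 rose in wild-type cells. Tnfsf9, the ligand of 4-1BB, rose by 4.14 ± 0.32 (adjusted p = 3.7e-06), 3.83 ± 0.32 (1.0e-05) and 4.24 ± 0.32 (3.8e-06) in TRIF-KO-labelled, MyD88-KO and wild-type cells. Tnfsf4, the OX40 ligand, rose in MyD88-KO cells (2.89 ± 0.44, 7.8e-04) as well as in wild-type cells (2.13 ± 0.44, 0.0027).

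Among 25 measured B7, CD28 and immunoglobulin family genes other than the members, the direction was mixed. In TRIF-KO-labelled cells 7 rose and 6 fell, in MyD88-KO cells 14 rose and 5 fell, in double-KO cells 1 rose (Pirb, 0.41 ± 0.08, adjusted p = 0.047), and in wild-type cells 10 rose and 5 fell. Icosl, the ICOS ligand, rose by 1.94 ± 0.29 in TRIF-KO-labelled (4.3e-04) and 1.82 ± 0.29 in MyD88-KO cells (8.7e-04), and the checkpoint gene Vsir fell by 1.2 ± 0.27 (0.0048) and 1.53 ± 0.27 (0.0015). Of 29 other adhesion genes, against the same shares of all genes, 7 rose and 11 fell in TRIF-KO-labelled, 9 rose and 8 fell in MyD88-KO, 1 rose in double-KO and 12 rose and 7 fell in wild-type cells. Itga5, the fibronectin receptor subunit, rose by 1.82 ± 0.19 (4.7e-05), 1.67 ± 0.19 (1.0e-04) and 1.65 ± 0.19 (5.8e-05), and Itga6, a laminin receptor subunit, fell by 2.02 ± 0.38 (0.0017), 1.97 ± 0.38 (0.0023) and 1.65 ± 0.38 (0.0045) in TRIF-KO-labelled, MyD88-KO and wild-type cells.

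Of 29 other surface activation antigens, against the same shares of all genes, 10 rose and 7 fell in TRIF-KO-labelled, 11 rose and 5 fell in MyD88-KO, 0 passed in double-KO and 13 rose and 6 fell in wild-type cells. Clec4e (Mincle), a receptor of mycobacterial glycolipid, rose by 3.83 ± 0.29 (adjusted p = 3.7e-06), 3.55 ± 0.29 (1.0e-05) and 3.47 ± 0.29 (9.3e-06). Among 17 genes that act with CD44 or CD38 on hyaluronan and nucleotides, 7 rose and 3 fell in TRIF-KO-labelled, 5 rose and 4 fell in MyD88-KO, 0 passed in double-KO and 7 rose and 4 fell in wild-type cells. The adenosine receptor gene Adora2a rose by 2.24 ± 0.26 (1.0e-04), 2.26 ± 0.26 (1.3e-04) and 2.48 ± 0.26 (3.5e-05), and Entpd1, which degrades extracellular ATP, fell by 1.14 ± 0.31 (0.015), 1.16 ± 0.31 (0.011) and 1.01 ± 0.31 (0.022) in TRIF-KO-labelled, MyD88-KO and wild-type cells.

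In TRIF-KO-labelled minus double-KO cells (3.54% of all genes higher, 3.05% lower), 5 of 10 CD40 partners responded more and 0 less, 3 and 0 of 14 TNF superfamily genes, 2 and 1 of 25 B7 and immunoglobulin family genes, 4 and 2 of 29 adhesion genes, 3 and 0 of 17 CD44 and CD38 partners and 7 and 1 of 29 activation antigens. Tnfsf9 stood at 4.03 ± 0.45 there (limma, adjusted p = 3.9e-04). In MyD88-KO minus double-KO cells (5.61% higher, 4.23% lower) the counts in the same order were 6 and 0, 5 and 0, 6 and 2, 5 and 2, 3 and 1, and 4 and 1, with Relb at 1.56 ± 0.25 (0.0062) and Tnfsf4 at 2.95 ± 0.63 (0.019). In double-KO minus wild-type cells (6.05% higher, 5.91% lower) they were 0 and 6, 0 and 5, 1 and 6, 1 and 7, 0 and 6, and 1 and 8, with Traf1 at -3.59 ± 0.50 (0.0014), Tnfsf9 at -4.13 ± 0.45 (3.6e-04) and Cd200, the ligand of an inhibitory receptor, at -3.63 ± 0.68 (0.0074). In untreated cells double-KO minus wild-type (15.5% higher, 10.6% lower) gave 1 and 4, 2 and 3, 3 and 10, 10 and 4, 3 and 5, and 4 and 14, with Ly6a at -4.05 ± 0.31 (4.2e-07) and the scavenger receptor gene Marco at -3.58 ± 0.25 (2.4e-07). These comparisons share the double-KO arrays.

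Several members are also known as markers of mature dendritic cells, so those markers were looked at. Of 7 measured dendritic cell markers 2, 3, 0 and 2 rose with LPS and 0 fell in TRIF-KO-labelled, MyD88-KO, double-KO and wild-type cells, and over all 8 the untreated levels spanned 6.73 to 17.25, 6.72 to 17.26, 6.66 to 17.12 and 6.69 to 17.25. Xcr1 was well above background on no array. Siglech was bright, at 17.12 to 17.26, in all 4 groups, and Zbtb46 read 9.33, 10.17, 7.17 and 10.60 in LPS-treated cells against 7.79, 7.60, 7.20 and 8.14 in untreated cells of the 4 groups in that order. The part of such cells in the result was not tested.

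Across the 20 arrays the log2 ratios of the members were related to different degrees, given here as a description over arrays that share genotypes and times. Pearson's r was 0.93 for Cd40 and Icam1, 0.91 for Cd69 and Icam1 and 0.91 for Cd69 and Vcam1. It was 0.12 for Cd38 and Cd69, -0.44 for Cd38 and Cd83, and negative for the brightest Cd80 probe with every other member, down to -0.88 with Cd44. Among 5141 genes outside the members with an SD of at least 0.5, the 3 most alike by r were Snx20 (0.98), Relb (0.973) and a probe without a gene name (0.962) for Cd40. They were Ing4 (0.982), Lpar6 (0.971) and Thap3 (0.969) for Cd80, and Hdc (0.97), Lrrc8c (0.966) and AA467197 (0.965) for Cd274. For Cd83 they were Klf6 (0.926), 5430427O19Rik (0.918) and Rgs1 (0.905). For the adhesion genes they were a probe without a gene name (0.987), Wdr92 (0.98) and Nfkbie (0.976) for Icam1, Katna1 (0.974), Gm6524 (0.966) and Casp4 (0.952) for Vcam1, and Cemip2 (0.961), Ptx3 (0.955) and Clcn5 (0.954) for Cd44. Cd69 was most like Cdkn1a (0.97), Zfp800 (0.96) and Csf1 (0.957), and Cd38 most like Slx4ip (0.972), Hp (0.956) and Il1f9 (0.955).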

How the data were processed

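Macrophage RNA was hybridised to 20 two-colour Agilent arrays. Per the file headers, the authors deposited spot intensities read with Agilent Feature Extraction 10.10.1.1 (array design on mm9), and the deposited value table holds its log10 ratio, the same within 5e-10. Mean and background intensity were corrected with normexp (offset 50) and loess, giving log2 ratios of LPS-treated over untreated cells. Levels also had Aquantile normalization. Of 39429 probes, 28388 well above background on at least 3 arrays in a channel were kept, with the brightest per gene. Probes were named through RefSeq by accession (27234), symbol (3576) or synonym (565), or kept the file's name (8054).

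The ratio of the swapped array (MyD88-KO, 2 h) was turned, and this array was left out of the fit of untreated levels. All p-values in the text are two-sided and come from limma 3.58.1 (R 4.3.3) with lmFit and eBayes over all genes, Benjamini-Hochberg adjusted, with genotype and time point. The replicate number in the labels is the time point, so it served as the block, and the same-time correlation of deviations was 0.74 to 0.83 for TRIF-KO-labelled and wild-type arrays, 0.28 to 0.70 for MyD88-KO and wild-type, 0.22 to 0.57 for MyD88-KO and TRIF-KO-labelled, and -0.20 to 0.13 for pairs with double-KO arrays. The fits were tested on simulated data. Alternatives changed the background correction, normalization, probe rule, filter, dye, slide, scan day, block and arrays. Dye and scan day were terms only in the fits of ratios and their slopes. The text names every member, at most 3 genes per direction of each other list, from those with the largest fitted change among the called, and the 3 genes most like each member (for Cd86 these are not reported here). The members and lists were chosen with earlier results of these data known.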

Additional observations from a re-analysis of the deposited data

Results flagged for a closer look

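Of 80 groups of 5 arrays, 5 had 1 array far from the others, with a gap to the nearest of more than 0.71 of the range. Chance gives this in about 1 of 20 groups of replicates. The 5 arrays of a group here are different times, so that rate does not hold for them. The untreated level of Cd38 was 9.09 in TRIF-KO-labelled cells at 16 h, above the other times. The Cd40 ratio was 0.24 in MyD88-KO cells at 1 h, and the Cd86 ratio was -1.16 in TRIF-KO-labelled cells at 16 h, each below the other times. Untreated Cd86 was 12.24 in double-KO cells at 8 h and untreated Vcam1 7.9 in wild-type cells at 8 h, both the lowest of their group.

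The LPS response differed between genotypes by limma's test of the difference itself for 4 members in TRIF-KO-labelled minus double-KO cells, with 2.04 for Cd40, -0.98 for Cd80 (its brightest probe, here and below), 1.93 for Icam1 and 2.87 for Cd69. In MyD88-KO minus double-KO cells 7 members did, with 2.78 for Cd40, -0.88 for Cd80, 1.85 for Cd86, 1.97 for Cd274, 2.39 for Icam1, 4.69 for Vcam1 and 4.62 for Cd69. In double-KO minus wild-type cells 7 did, with -1.99 for Cd40, 0.81 for Cd80, -1.87 for Cd274, -2.15 for Icam1, -2.71 for Cd69, -2.27 for Cd38 and -1.2 for Cd44. The slope of Cd38 over log2 time differed by -0.72 in MyD88-KO minus TRIF-KO-labelled and by -0.83 in MyD88-KO minus wild-type cells.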

How the results depend on the processing

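Values below are counts of the 10 members called unless said otherwise, and the cause of a changed count was not tested. The share of all genes called in each setting is not given beside them, so a changed count need not be particular to the members. Without background correction TRIF-KO-labelled minus double-KO gave 7. With dye as a term the LPS response gave 0 for TRIF-KO-labelled, 5 for MyD88-KO and 1 for wild-type cells, and the slope in MyD88-KO cells gave 0. Loess within arrays only gave 5 for the untreated double-KO and 0 for the untreated MyD88-KO comparison with wild-type, and the untreated slopes turned to -0.02 for Cd38 and -0.06 for Cd83. Scaling the ratios gave 4 for double-KO minus wild-type and 1 for the MyD88-KO slope. Without the replicate block (the time point), TRIF-KO-labelled minus double-KO gave 0, MyD88-KO minus double-KO 1, double-KO minus wild-type 1 and untreated MyD88-KO minus wild-type 0. Fitting only the genotypes compared, where fewer arrays estimate the spread, gave 1 for the double-KO LPS response and 0 for the other 3 responses. It also gave 0 for every slope and every difference between responses or slopes. The 9 member calls that held in these fits were of untreated levels. Scan day as a block gave 0 for the MyD88-KO slope and both slope differences, and the scanner's own ratio 0 for both slope differences. Slide as a fixed block gave 0 for the wild-type response, the 3 differences with double-KO cells, the MyD88-KO and TRIF-KO-labelled slopes and their difference, 4 for untreated double-KO minus wild-type, 1 for untreated MyD88-KO minus wild-type and 1 for the untreated slope. It turned Cd40 in wild-type cells to -0.27, and double-KO minus wild-type to 2.37 for Cd40, 0.3 for Cd44 and -0.01 for Cd80. With the mean of all kept probes Cd80 lost its call in wild-type cells (-0.18), in double-KO minus wild-type (0.2) and in TRIF-KO-labelled minus double-KO (-0.31), and Vcam1 in TRIF-KO-labelled cells (1.24). Without the filter on dim probes 4 calls moved to adjusted p of 0.053 to 0.062 (Vcam1 in TRIF-KO-labelled cells, Cd69 in TRIF-KO-labelled minus double-KO and in double-KO minus wild-type, Cd86 in MyD88-KO minus double-KO). Slide as a random block gave 1 for TRIF-KO-labelled minus double-KO, 1 for double-KO minus wild-type, 0 for both slope differences and 5 for untreated double-KO minus wild-type.

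Leaving out 1 array, or all arrays of 1 time, gave 5 to 9 for the LPS response of TRIF-KO-labelled, 7 to 10 of MyD88-KO, 0 of double-KO and 6 to 10 of wild-type cells. It gave 0 to 7 for TRIF-KO-labelled minus double-KO, 1 to 8 for MyD88-KO minus double-KO, 1 to 8 for double-KO minus wild-type, 0 to 2 for MyD88-KO minus TRIF-KO-labelled, and 0 to 1 for MyD88-KO minus wild-type. Slopes gave 1 to 2 for TRIF-KO-labelled, 0 to 4 for MyD88-KO and 1 to 5 for wild-type cells, and the slope differences 0 to 2 against TRIF-KO-labelled and 0 to 1 against wild-type. Untreated levels gave 0 to 2 for MyD88-KO and 7 to 8 for double-KO minus wild-type, and 3 to 7 for the untreated slope. Among single-member results with an array or time left out, 0 reversed, 205 lost their call and 1445 kept it. With 1 array per genotype and time, no time point has a replicate of its own.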
